A study of Mus musculus with 36 samples.

Results

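The Zfp36 family holds the RNA-binding proteins Zfp36 (also called tristetraprolin), Zfp36l1 and Zfp36l2. Each carries a pair of CCCH zinc fingers that bind AU-rich elements in the untranslated part of a messenger RNA. The bound protein recruits the CCR4-NOT deadenylase, which shortens the poly(A) tail and starts decay of the message. Zfp36 is a textbook immediate early gene of fibroblasts, and many targets of the family encode cytokines, growth factors and cell cycle regulators. The 3 members were picked by transcript identifier with results of these same libraries known. Their values in all 9 conditions are therefore a description and carry no p-value.

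The 3 transcripts are among 11037 transcripts listed in any footprint library and 17469 listed in any RNA library. Their identifiers are ENSMUST00000060366 (Zfp36l2), ENSMUST00000021552 (Zfp36l1) and ENSMUST00000051241 (Zfp36). All 3 passed the low-value filter (mean over an assay's 18 libraries no lower than 2 on the scaled values), which left 8849 transcripts for footprints, 9275 for RNA and 8446 for both.

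The samples were C57BL/6J mouse embryonic fibroblasts under hyperosmotic stress, in which sorbitol in the growth medium draws water out of the cell. There were 9 conditions. Cells were left unstressed, held for 2 h at 500 or 600 mOsm, or exposed to 700 mOsm for either 15 min or 2 h. The shorter and the longer exposure to 700 mOsm were each followed by 15 min or 2 h of recovery in the remaining conditions. Each condition had 2 Ribo-seq libraries, which count the RNA pieces that ribosomes protect, and 2 RNA-seq libraries of cytoplasmic extract. The labels do not say whether the 2 libraries of a condition came from separate cultures, so the spread between them may be technical.

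Reads on listed transcripts numbered 734083 to 9124787 per footprint library, fewest at 700 mOsm, and 6851958 to 55262396 per RNA library. Within a condition the pair of footprint libraries was close to counting noise (chi-square per degree of freedom 1.01 to 1.33). Each pair was therefore treated as 1 sample: footprint levels carry no SD, and their intervals cover counting error only. RNA pairs differed by more (3.44 to 47.1) and give n = 2. For the RNA libraries labelled 15 min at 700 mOsm with 2 h of recovery, and 2 h at 700 mOsm with 15 min of recovery, the deposited file names give the other of these 2 conditions. Groups here follow the labels. RNA values of those 2 conditions are given as labelled, with what they become if the names are exchanged, and no footprint to RNA comparison is made for them.

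Levels are per length, as RPKM for footprints and FPKM for RNA (reads or fragments per kilobase, relative to library depth). They are scaled so that the median matches between libraries over well-covered transcripts listed in every library. These numbered 4619 for footprints and 5705 for RNA. Over the 8849 footprint transcripts past the filter, the median log2 change from unstressed cells was -0.92 at 700 mOsm for 15 min. It was -0.91 at 700 mOsm for 2 h and -0.41 at 600 mOsm. In these medians a transcript that a library does not list counts as 0. Footprint libraries at 700 mOsm listed 6193 to 7145 transcripts and those at 600 mOsm 9044 and 8765, against 10421 and 10458 unstressed. Lower levels and missing listings in shallow libraries cannot be told apart in the medians. The scale is relative: a drop of all transcripts together would not show. Against unstressed cells, this scaling shifted footprint values by 0.56 on the log2 scale at 700 mOsm for 15 min and by 0.47 at 700 mOsm for 2 h, and RNA values by less than 0.1. A transcript with few footprints is absent from a library's list. Nearly all listed values rest on at least 5 reads, and the level that 5 reads would have is used as a bound where a member was not listed. The bound is not strict: at 700 mOsm for 2 h, 0.23% of transcripts with at least 40 reads in 1 library were not listed in the other. With at least 10 reads the share was 1.82% there and 1.73% at 700 mOsm for 15 min.

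The promoters of Zfp36 and Zfp36l1 are shown because the RNA of both was higher in the same pair of conditions, 500 mOsm for 2 h and the 2 h recovery from the longer stress. The sequences are from RefSeq on GRCm38.p6 and cover the 250 bases before the gene start on the minus strand, 5′ to 3′. The Zfp36l1 stretch is chr12:80113014-80113263 and the Zfp36 stretch is chr7:28379229-28379478. Capitals mark motif matches. Zfp36l2 has no entry in the promoter table used here.

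Zfp36l1: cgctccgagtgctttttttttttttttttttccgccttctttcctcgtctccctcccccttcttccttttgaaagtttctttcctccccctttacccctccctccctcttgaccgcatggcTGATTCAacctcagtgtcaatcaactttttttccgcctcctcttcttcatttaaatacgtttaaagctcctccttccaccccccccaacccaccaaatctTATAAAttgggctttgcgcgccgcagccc

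Zfp36: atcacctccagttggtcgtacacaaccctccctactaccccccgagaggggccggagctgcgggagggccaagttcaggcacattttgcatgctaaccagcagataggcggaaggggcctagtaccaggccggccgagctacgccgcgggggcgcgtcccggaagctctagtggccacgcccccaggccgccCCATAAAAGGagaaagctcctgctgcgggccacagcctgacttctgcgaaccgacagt

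Both strands were searched for TGGAAA (the core bound by the osmotic stress factor NFAT5) and TGACG (the half-site of CREB). TGANTCA (a loose form of the AP-1 motif, where N is any base), TATAAA and the CArG box (bound by serum response factor) were searched too. The Zfp36l1 stretch holds 1 TGANTCA match (TGATTCA), ending 122 bases before the start, and 1 TATAAA match, ending 23 bases before it. Zfp36 holds 1 CArG box, ending 48 bases before the start, and none of the other motifs. Of 32851 RefSeq promoter stretches of the same length, 6.75% hold TGANTCA, 12.4% TATAAA and 1.47% a CArG box. TGGAAA is in 18.6% of them and TGACG in 17.8%, and neither member has one of these here. These are matches of letters in this window and not measured sites.

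In unstressed cells the family was mostly Zfp36l2. Its gene lies on GRCm38.p6 chromosome 17, 84183924 to 84187947, and its coding length in the files is 485 codons with the stop. Zfp36l2 RNA was 72.1 and 71.6 scaled FPKM, above 87.7% of the 9275 transcripts past the filter. Zfp36l1 (chromosome 12, 80107760 to 80113013; 339 codons) stood at 4.81 and 5.07 scaled FPKM, above 17.8% of transcripts. Zfp36 (chromosome 7, 28376784 to 28379228; 320 codons) stood at 1.86 and 2.32, above 1.83%. The order Zfp36l2, Zfp36l1, Zfp36 had no overlap between neighbours.

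Footprints had the same order, with 129 and 119 scaled RPKM for Zfp36l2, 17.6 and 21.6 for Zfp36l1, and 5.19 and 5.24 for Zfp36. The ratio of footprint to RNA level was 1.72 for Zfp36l2, close to the median of 1.61 over 8446 transcripts. It was 3.96 for Zfp36l1, above 88.9% of transcripts, and 2.49 for Zfp36, above 72.9%.

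**Figure D1:**
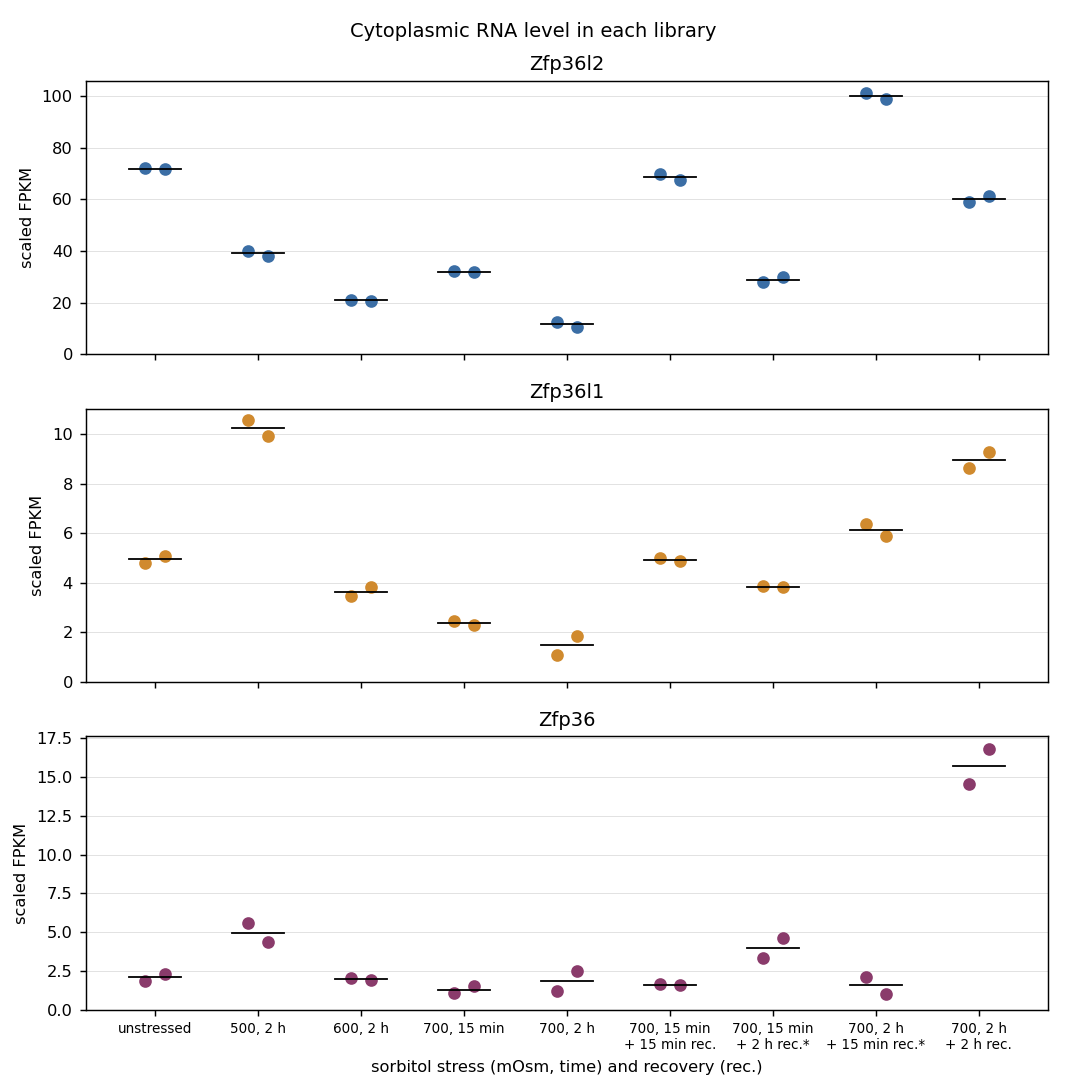
Scaled FPKM (vertical axis, linear, from 0) of each member in each RNA library (points) over the 9 conditions, with the mean of the pair as a bar; an asterisk marks the 2 labelled conditions whose file names give each other's name. Zfp36l2 is lowest at 700 mOsm for 2 h (12.6 and 10.4), and Zfp36 is highest after 2 h of recovery from the longer stress (14.6 and 16.8).

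Zfp36l2 RNA was lower than in unstressed cells at every stress strength. At 500 mOsm for 2 h it was 40.1 and 38.1 scaled FPKM, a log2 change of -0.86 (SE 0.09). At 600 mOsm it was 21.1 and 20.7, a change of -1.73 (SE 0.09). At that strength 0.464% of all transcripts were at least 2-fold lower in RNA, and Zfp36l2 was the 1 member among them. Both libraries of each stress stood below both unstressed libraries, and how many of all transcripts did so was not counted. By size of change, 0.765% of transcripts had a lower RNA change than Zfp36l2 at 500 mOsm and 0.0108% at 600 mOsm. In bulk samples such as these, fewer cells with the message and less of it per cell cannot be told apart.

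At 700 mOsm for 15 min Zfp36l2 RNA was already at 32.4 and 31.7 scaled FPKM, a log2 change of -1.14 (SE 0.08), with 1.93% of all transcripts at least 2-fold lower. After 2 h at 700 mOsm it was 12.6 and 10.4, a change of -2.54 (SE 0.10). None of the 9275 transcripts had a lower change in that comparison, in which 6.84% were at least 2-fold lower. Zfp36l1 was the other member past 2-fold.

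Zfp36l1 RNA did not follow the same course. It was higher at 500 mOsm for 2 h, at 10.5 and 9.93 scaled FPKM, a log2 change of 0.92 (SE 0.15). It was lower at 600 mOsm, at 3.47 and 3.81, a change of -0.36 (SE 0.15). At 700 mOsm it was 2.44 and 2.31 after 15 min (-0.82, SE 0.14) and 1.09 and 1.87 after 2 h (-1.28, SE 0.16). In these 4 conditions the stressed and unstressed pairs did not overlap. How many of all transcripts share this was not counted, and with 2 libraries against 2 it is a weak criterion. By size of change, 99.5% of transcripts had a lower RNA change than Zfp36l1 at 500 mOsm. The share was 9.88% at 600 mOsm, and at 700 mOsm 5.18% after 15 min and 2.35% after 2 h.

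Zfp36 RNA was higher at 500 mOsm too, at 5.57 and 4.36 scaled FPKM, a log2 change of 0.95 (SE 0.30). At 600 mOsm (2.02 and 1.92) and after 2 h at 700 mOsm (1.23 and 2.50, from 50 and 29 reads) it overlapped the unstressed pair. After 15 min at 700 mOsm it was 1.04 and 1.52, a change of -0.44 (SE 0.28).

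**Figure D2:**
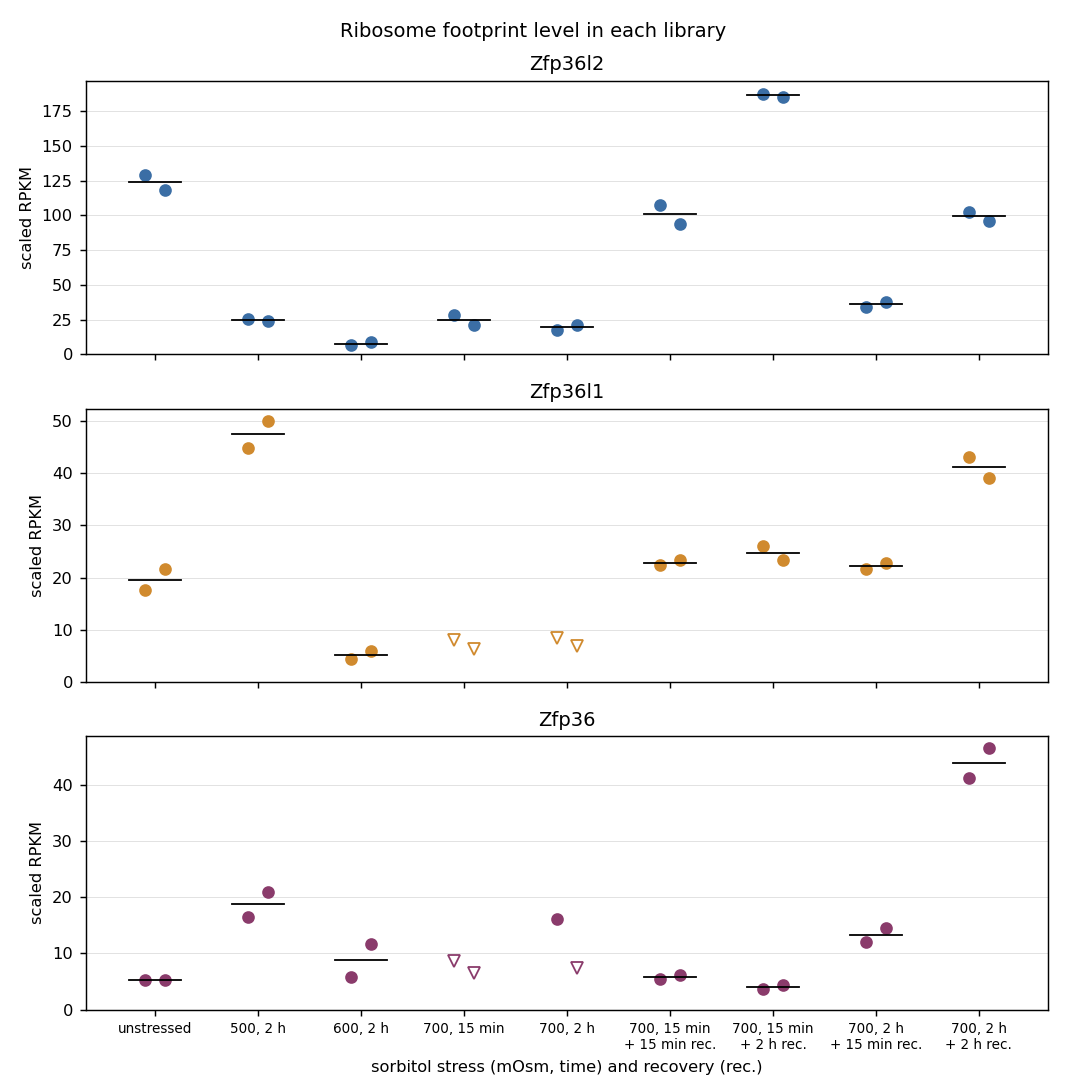
Scaled RPKM (vertical axis, linear, from 0) of each member in each footprint library (filled points), with the mean of the pair as a bar; open triangles stand at the level 5 reads would have in a library that does not list the member. Zfp36l2 drops at all 4 stresses, while Zfp36l1 and Zfp36 are above their unstressed pair at 500 mOsm.

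Footprints separated the members further at 500 mOsm. Zfp36l2 had 25.5 and 23.8 scaled RPKM there, which by reads was 5.01-fold lower than unstressed (95% exact interval 4.49 to 5.62). Over all transcripts 16.8% were at least 2-fold lower in footprints. Zfp36l1 had 44.8 and 50.1, a read ratio of 2.42 (2.09 to 2.80), and Zfp36 had 16.5 and 20.9, a ratio of 3.59 (2.74 to 4.74). At least 2-fold higher footprints were found for 0.746% of all transcripts, and these included both.

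At 600 mOsm Zfp36l2 had 6.69 and 8.74 scaled RPKM, 16.2-fold lower by reads (12.7 to 21.1). Zfp36l1 had 4.32 and 5.88, from 14 and 16 reads, 3.90-fold lower (2.68 to 5.88). Both were past 2-fold lower, as were 35.4% of all transcripts. Zfp36 had 5.88 and 11.7 scaled RPKM, both above its unstressed pair, with a read ratio of 1.64 (1.12 to 2.37).

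At 700 mOsm the footprint libraries were shallow. Zfp36l2 had 28.4 and 20.9 scaled RPKM after 15 min (25 and 24 reads; 5.12-fold lower, 3.86 to 6.94). After 2 h it had 17.7 and 21.3 (15 and 22 reads; 6.27-fold lower, 4.54 to 8.93). Zfp36l1 was not listed in any of the 4 libraries, which at 5 reads per library puts it at least 2.73-fold lower after 15 min and at least 2.55-fold lower after 2 h. In footprints 48.8% of all transcripts were at least 2-fold lower after 15 min and 47.8% after 2 h, so a drop of this kind was common. Here transcripts that were not listed count as 0.

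Zfp36 footprints could not be placed at 700 mOsm. After 15 min neither library listed it, and 5 reads would stand at 7.60 scaled RPKM, above its unstressed level. After 2 h 1 library had 9 reads (16.1 scaled RPKM) and the other did not list it, so no change is given.

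The footprint change minus the RNA change, the change in translational efficiency, was -1.42 for Zfp36l2 at 500 mOsm on the log2 scale, 0.32 for Zfp36l1 and 0.71 for Zfp36. Over 8446 transcripts 16.9% were at least 2-fold lower in this measure. At 600 mOsm it was -2.12 for Zfp36l2, -1.40 for Zfp36l1 and 0.64 for Zfp36, with 35.3% of all transcripts at least 2-fold lower. At 700 mOsm for 15 min it was -1.16 for Zfp36l2, with 47.2% at least 2-fold lower. After 2 h at 700 mOsm it was -0.06 for Zfp36l2, and -0.43 with the values as deposited. The median over 8446 transcripts was -0.68 there, and Zfp36l2 stood above 64.1% of them. Other transcripts without listed footprints count as 0 in these medians and shares, while Zfp36l2 was listed in all 18 footprint libraries. Its footprints after 2 h at 700 mOsm rest on 37 reads.

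**Figure D3:**
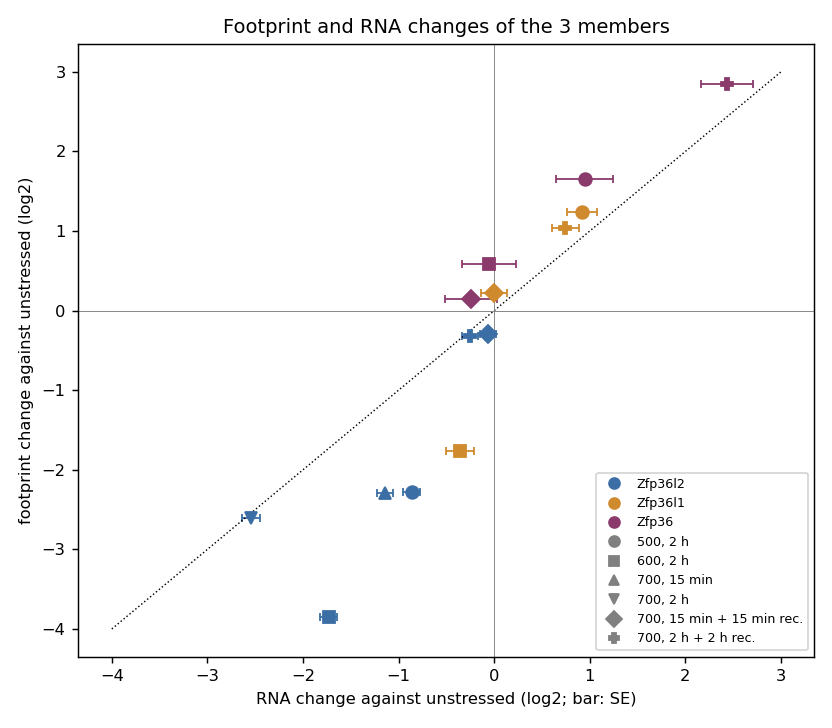
Log2 change of footprints (vertical axis) against log2 change of RNA (horizontal axis; bars are the SE) for the 3 members, each against unstressed cells, in the 6 conditions with no conflict of RNA labels; the dotted line marks equal changes, and members not listed in a footprint library are left out. Zfp36l2 at 500 and 600 mOsm lies below the line (-2.28 against -0.86, and -3.85 against -1.73), and Zfp36 lies above it at 500 mOsm (1.66 against 0.95).

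After 15 min of recovery from the shorter stress, Zfp36l2 RNA was 69.8 and 67.5 scaled FPKM, close to its unstressed level (log2 change -0.06, SE 0.08). Against 15 min at 700 mOsm it was higher by 1.08 (SE 0.05), and 0.906% of all transcripts were at least 2-fold higher. Zfp36l1 RNA returned to 4.99 and 4.88 scaled FPKM, within the unstressed pair. Zfp36 RNA was 1.63 and 1.56.

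Footprints at this time were 107 and 93.9 scaled RPKM for Zfp36l2, 22.3 and 23.3 for Zfp36l1, and 5.51 and 6.24 for Zfp36. Against 15 min at 700 mOsm, Zfp36l2 was 4.16-fold higher by reads (3.13 to 5.65) and Zfp36l1 at least 3.18-fold higher. Of all transcripts 48.3% were at least 2-fold higher in that comparison.

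After 2 h of recovery from the shorter stress, Zfp36l2 had its highest footprint level, 188 and 185 scaled RPKM, a read ratio of 1.51 to unstressed cells (1.44 to 1.58). Zfp36l1 had 26.1 and 23.4, and Zfp36 had 3.74 and 4.36, its lowest level in any library that listed it. The Zfp36 level rests on 73 reads against 80 in unstressed cells, a read ratio of 0.78 (0.56 to 1.08), an interval that includes no change.

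Recovery from the longer stress began differently. After 15 min, Zfp36l2 had 34.4 and 37.5 scaled RPKM of footprints, 3.44-fold lower than unstressed (3.05 to 3.91), where 5.51% of all transcripts were at least 2-fold lower. Zfp36l1 had 21.6 and 22.7, overlapping its unstressed pair. Zfp36 had 12.0 and 14.6, a read ratio of 2.54 (1.82 to 3.55), where 1.79% were at least 2-fold higher. Against 2 h at 700 mOsm, Zfp36l2 footprints had a read ratio of 1.82 (1.29 to 2.64), and Zfp36l1 footprints were at least 2.88-fold higher. In that comparison 42.3% of all transcripts were at least 2-fold higher.

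In RNA, the libraries labelled with these remaining 2 conditions gave 27.8 and 29.8 scaled FPKM of Zfp36l2 for 15 min at 700 mOsm with 2 h of recovery, and 101 and 99.0 for 2 h at 700 mOsm with 15 min of recovery. Zfp36l1 stood at 3.85 and 3.81 in the first and 6.36 and 5.88 in the second. Zfp36 stood at 3.30 and 4.59, and at 2.12 and 1.01. As labelled, Zfp36l2 was at least 2-fold lower in the first (log2 change -1.29), where 0.183% of all transcripts were, and stood at 0.47 in the second. With the names exchanged, -1.29 belongs to the second and 0.47 to the first.

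After 2 h of recovery from the longer stress, Zfp36 RNA reached 14.6 and 16.8 scaled FPKM against 1.86 and 2.32 in unstressed cells, a log2 change of 2.44 (SE 0.27). At least 2-fold higher RNA was found for 2.77% of all transcripts, and Zfp36 was the 1 member among them. Zfp36l1 RNA was 8.64 and 9.27 (0.74, SE 0.14), and Zfp36l2 RNA 58.9 and 61.5 (-0.25, SE 0.08). Against 2 h at 700 mOsm all 3 were at least 2-fold higher, with log2 changes of 2.29 (Zfp36l2), 2.02 (Zfp36l1) and 2.58 (Zfp36), as were 9.42% of all transcripts.

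Footprints of Zfp36 were 41.2 and 46.5 scaled RPKM at that time, a read ratio of 8.41 to unstressed cells (6.61 to 10.8). Those of Zfp36l1 were 43.1 and 39.1, a ratio of 2.09 (1.80 to 2.43). Both were among the 3.89% of all transcripts at least 2-fold higher. Zfp36l2 had 103 and 96.1, 1.24-fold lower (1.17 to 1.33). Against 2 h at 700 mOsm, Zfp36l2 was 5.04-fold higher (3.64 to 7.19) and Zfp36l1 at least 5.35-fold higher, where 43.1% of all transcripts were past 2-fold.

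Translational efficiency is given for the 2 recovery conditions with no label conflict. After 15 min of recovery from the shorter stress the log2 change was -0.23 for Zfp36l2, 0.22 for Zfp36l1 and 0.39 for Zfp36. The last stood above 93.5% of transcripts, but neither of its parts was set apart from no change. Its footprint part was 0.14, from 47 reads against 80 in unstressed cells. The read ratio was 1.13, with an interval (0.77 to 1.64) that includes no change. Its RNA part was -0.25 (SE 0.27). After 2 h of recovery from the longer stress the log2 change in translational efficiency was -0.06, 0.29 and 0.41 in the same order of members. Zfp36 was then above 93.0% of transcripts. At that time Zfp36 was higher by 2.85 in footprints and by 2.44 in RNA on the log2 scale. All these changes are computed with 1 added to each level, which weighs most on low levels. The footprint to RNA ratio of the levels themselves was 2.49 for Zfp36 in unstressed cells. It was 3.68 in the 15 min recovery and 2.79 in the 2 h recovery. For Zfp36l1 the ratio was 3.96, 4.62 and 4.59 in the same order.

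**Figure D4:**
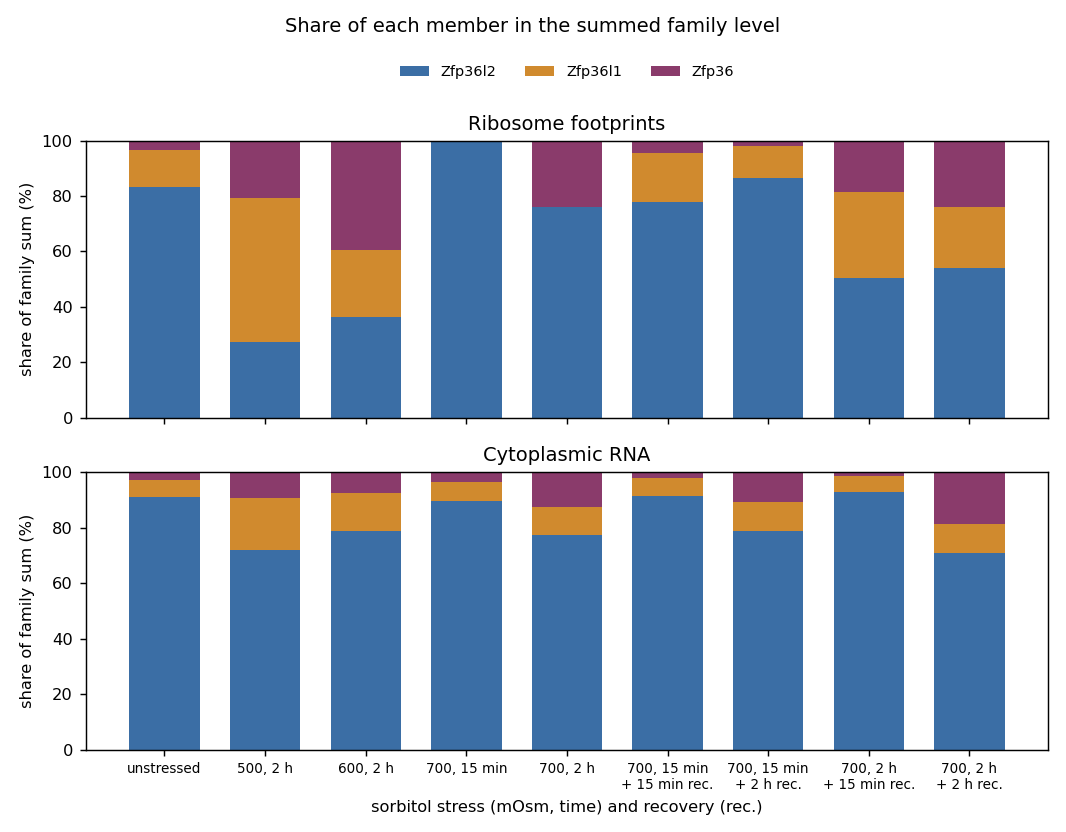
Share of each member (stacked bars, percent) in the summed level of the family, mean of the 2 libraries of each condition, for footprints (top) and RNA (bottom); a member not listed in a library counts as 0 there. Zfp36l2 holds 83.3% of unstressed footprints and 27.2% at 500 mOsm for 2 h.

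The make-up of the family's footprints differed between conditions. Zfp36l2 held 83.3% of the summed footprint level in unstressed cells (81.5% and 85.0% in the 2 libraries), Zfp36l1 13.2% and Zfp36 3.51%. At 500 mOsm Zfp36l1 held the largest share, 52.2% (51.6% and 52.8%), with 27.2% for Zfp36l2 and 20.6% for Zfp36. After 2 h of recovery from the longer stress the shares were 53.9% for Zfp36l2, 22.3% for Zfp36l1 and 23.8% for Zfp36.

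In RNA, Zfp36l2 held 91.1% in unstressed cells, 72.0% at 500 mOsm and 71.0% after 2 h of recovery from the longer stress. The summed RNA level of the family was 78.9 scaled FPKM in unstressed cells, 14.9 after 2 h at 700 mOsm and 84.8 after that recovery.

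Across the 9 conditions, the Pearson correlation of RNA levels (log2) was 0.68 between Zfp36l2 and Zfp36l1, 0.63 between Zfp36l1 and Zfp36, and 0.13 between Zfp36l2 and Zfp36. The points share libraries and scaling, and the RNA groups follow the labels. Besides the members, the transcript most like Zfp36 in RNA was ENSMUST00000055322 (r = 0.98), at 22.4 scaled FPKM in unstressed cells and 101 after 2 h of recovery from the longer stress. In footprints it was ENSMUST00000109824 (r = 0.97), at 12.9 and 273 scaled RPKM. Most like Zfp36l2 were ENSMUST00000111785 in RNA (r = 0.99), at 5.01 in unstressed cells and 1.19 after 2 h at 700 mOsm, and ENSMUST00000159814 in footprints (r = 0.99), at 64.7 and 18.9. The highest correlation with Zfp36l1 was 0.98 in RNA and 0.99 in footprints. Each is the highest of 9275 (RNA) or 8849 (footprint) transcripts over 9 points. Correlations over 0.95 were found for 99 transcripts with Zfp36l2, 11 with Zfp36l1 and 9 with Zfp36 in RNA, and for 21, 319 and 4 in footprints.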

How the data were processed

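The deposited values were RPKM per transcript for Ribo-seq (per coding length, from the values) and FPKM per transcript for RNA-seq, as the authors computed them. Per the labels' protocols, footprints were 28-30 nt RNase I fragments from gradient fractions of the 80S peak and heavier, with cycloheximide in the lysis buffer. Cutadapt, Bowtie, STAR and GRCm38 are named in the submitters' processing notes; no versions are named.

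Whole reads were recovered from the deposited RPKM and FPKM (100% of values within a relative 1e-09, largely by construction) and used for depth and exact 95% Poisson intervals only. Libraries were scaled by the median ratio to the geometric mean over the 4619 (footprints) or 5705 (RNA) transcripts listed in every library and averaging 10 or more. The log2 scale used a pseudocount of 1, so RNA or footprint changes at low levels are understated. Changes in translational efficiency, as differences between them, can be understated or overstated. RNA changes and SEs came from limma 3.58.1 (R 4.3.3), with 1 fit over all 18 libraries and a weight per group; both scripts were tested on simulated data. Footprint libraries were averaged on the log2 scale. A first version averaged them before log2; the change was made after its calls had been seen, and that version is kept as an alternative. Likewise, giving no change for a member listed in 1 library of a condition was decided after its value was seen.

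Members and lists were chosen with earlier results of these data known. The 3 members are always named, plus the transcript most correlated with each over the 9 conditions. No table used here pairs the transcript identifiers with symbols, so symbols of members come from the selection rule, and the lists of decay factors, targets and cell type markers could not be counted. The fibroblast label was therefore not checked against markers. Replicate numbers did not pair the samples.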

Additional observations from a re-analysis of the deposited data

Results flagged for a closer look

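Samples are grouped here by their labels. In 6 cases all libraries of a member moved one way from unstressed cells in 1 condition and the other way in a related one. The differences were not tested. How often other transcripts do the same was not counted, so the 6 cases do not set the members apart. Zfp36 footprints had a log2 change of -0.30 after 2 h of recovery from the shorter stress and 2.85 after 2 h of recovery from the longer one, a difference of 3.15. The first of these rests on 73 against 80 reads, with a read ratio of 0.78 (95% exact interval 0.56 to 1.08) that includes no change. Zfp36l2 footprints went the opposite way, 0.59 and -0.31, a difference of -0.903. Zfp36l1 footprints were higher at 500 mOsm (1.24) and lower at 600 mOsm (-1.76), a difference of -3. Zfp36l1 RNA had the same split, 0.92 and -0.36, a difference of -1.28.

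The other 2 of the 6 cases exist only as the RNA libraries are labelled, and 4 do not rest on them. As labelled, Zfp36l2 RNA differed by 0.538 between 15 min of recovery from the shorter stress (-0.06, SE 0.08) and from the longer one (0.47). With the 2 names exchanged the latter is -1.29, and both changes are lower. As labelled, Zfp36l1 RNA differed by 1.04 between 2 h of recovery from the shorter stress (-0.30) and from the longer one (0.74). With the names exchanged the former is 0.26, and both are higher. The exchange gives 2 cases that the labels do not. Zfp36 RNA is then -0.25 (SE 0.27) and 0.67 (SE 0.30) after 15 min of recovery from the shorter and the longer stress. Zfp36l2 RNA is 0.47 and -0.25 after 2 h of recovery from them. These 2 cases were not tested either. After 15 min of recovery from the shorter stress, the changes of -0.06 (Zfp36l2) and -0.25 (Zfp36) are smaller than their SE.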

How the results depend on the processing

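Footprint comparisons set 1 sample against 1, and the shallow libraries at 700 mOsm limit them most. Exchanging the RNA names of the 2 conditions in conflict, an alternative chosen after seeing the data, turned 1 called change: Zfp36l2 RNA after 15 min at 700 mOsm with 2 h of recovery went from -1.29 to 0.47. The count of members at least 2-fold lower there went from 1 to 0, and after 2 h at 700 mOsm with 15 min of recovery from 0 to 1. No called change turned under the other alternatives run. Of the recomputed counts and shares, 421 stayed within their limits and 17 did not. With a pseudocount of 0.25, 2 members in place of 0 were at least 2-fold higher in RNA at 500 mOsm. These were Zfp36l1 and Zfp36, whose main changes of 0.92 and 0.95 were each above 99.5% of transcripts. Shares of all transcripts are not given for the counts with this pseudocount, with values as deposited or with 1 library left out. Those counts describe the members only. With values as deposited, 2 members in place of 1 were at least 2-fold higher in footprints after 15 min of recovery from the longer stress against 2 h at 700 mOsm, and 1 in place of 0 in translational efficiency after 15 min of recovery from the shorter stress against 15 min at 700 mOsm.

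Leaving out 1 library gave 0 to 1 members higher in RNA at 500 mOsm (1 without the second library of either group). It gave 0 to 1 higher in footprints and in translational efficiency at 600 mOsm (without its first footprint library) and after 2 h at 700 mOsm (without its second). It gave 1 to 2 higher in footprints after 2 h of recovery from the longer stress (1 without its first library or the first unstressed one). In translational efficiency it gave 0 to 1 lower at 700 mOsm for 15 min (0 without its second footprint library), 0 to 1 higher for the 15 min recovery against it (1 without the second recovery library or the first stress library), and 0 to 1 lower for the 2 h recovery against 2 h at 700 mOsm (1 without the second footprint library of the stress).

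With the footprint libraries averaged before log2, an alternative chosen after seeing the data, the share of all transcripts called moved by at most 3 percentage points, and Zfp36 after 2 h at 700 mOsm had a log2 change of 0.54 from 9 reads. Members at least 2-fold higher in footprints after 2 h of recovery from the longer stress, against 2 h at 700 mOsm, were then 3 in place of 2, with Zfp36 at 2.31. In that version 40.1% of all transcripts were at least 2-fold higher there. With the replicate number as a block, the RNA changes were the same (Zfp36l2 at 500 mOsm -0.86, SE 0.09; 0 members at least 2-fold higher). Same-numbered libraries deviated together in 6 of 36 pairs of conditions (r over 0.1; range -0.307 to 0.308).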
